A study of Homo sapiens with 6 samples.

Results

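Scavenger receptors and the mannose receptor were followed in the U937 line, established human myeloid cells that came from a histiocytic lymphoma, labelled here as acute myeloid leukemia of wild-type genotype. The 10 genes, chosen by name and matched through their Ensembl identifiers, were CD163, MSR1, MARCO, CD36, SCARB1, SCARB2, STAB1, OLR1, MRC1 and CD68, out of 60612 identifiers in the deposited table. RNA sequencing was performed on 6 libraries, 3 from cells given B2, a compound known by that code alone, at 1 µM and 3 from cells given its DMSO vehicle, both for 36 h in RPMI-1640 without serum. Within each group the libraries carry the replicate numbers 1, 2 and 3, and nothing in the labels says whether these were separate cultures, so p-values measure only the spread between these libraries. The series title names S100A9 as the target in acute myeloid leukemia, and the comparison asks how B2 alters gene expression.

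Scavenger receptors are cell-surface or lysosomal proteins that bind modified lipoproteins, bacteria, dying cells and other polyanionic or lipid ligands and carry them into the cell. They are grouped into classes that share a function more than a sequence, and several, with the mannose-binding lectin receptor encoded by MRC1, are used as markers of macrophages. Monocytic lines such as U937 can be driven towards a macrophage phenotype by phorbol esters or other inducers, and receptors of this kind are among the genes followed in such experiments.

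Library totals ran from 61150740 to 78431054 counts. Values are given as CPM, the count scaled to a common library total after TMM normalization, and 3 counts, the limit that a count of 0 allows, corresponded to 0.0386 to 0.0537 CPM. This limit covers counting error only. Of the 10 genes, 8 passed the filter on low counts that left 17224 genes to test. CD163, MARCO, CD36, SCARB1, SCARB2, STAB1, OLR1 and CD68 passed it, while MSR1 and MRC1 did not. The filter asks for signal in 3 libraries, and the libraries numbered 3 are only 2, so none of the 8 passed on those libraries alone. The 2 libraries numbered 3 stood apart from the other 4, and results that rest on them are given below with each left out in turn.

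Promoter sequences are shown for the 5 receptor genes whose transcripts differed between replicate numbers, described below, so that their start regions can be compared. They come from RefSeq on GRCh38.p14 and cover the 250 bases before an annotated start, read 5′ to 3′ on the strand of the gene. CD163 lies at chr12:7503778-7504027 (minus strand), CD68 at chr17:7579388-7579637, MARCO at chr2:118941944-118942193, the CD36 start that lies farthest upstream of its 6 in that table at chr7:80601957-80602206, and STAB1 at chr3:52495088-52495337 (plus strand for these 4). Capitals mark the core letters of the myeloid factor PU.1, GAGGAA or on the other strand TTCCTC, and the AP-1 letters TGANTCA.
CD163: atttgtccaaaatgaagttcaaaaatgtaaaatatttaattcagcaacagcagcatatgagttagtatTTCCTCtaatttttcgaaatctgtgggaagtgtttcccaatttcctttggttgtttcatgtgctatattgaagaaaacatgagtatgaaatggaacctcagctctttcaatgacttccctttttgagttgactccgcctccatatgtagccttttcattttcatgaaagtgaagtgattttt
CD68: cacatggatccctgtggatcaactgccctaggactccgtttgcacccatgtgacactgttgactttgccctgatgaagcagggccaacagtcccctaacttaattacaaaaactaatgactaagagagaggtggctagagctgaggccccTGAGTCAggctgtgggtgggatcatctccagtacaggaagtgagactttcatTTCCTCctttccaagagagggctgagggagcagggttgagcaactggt
MARCO: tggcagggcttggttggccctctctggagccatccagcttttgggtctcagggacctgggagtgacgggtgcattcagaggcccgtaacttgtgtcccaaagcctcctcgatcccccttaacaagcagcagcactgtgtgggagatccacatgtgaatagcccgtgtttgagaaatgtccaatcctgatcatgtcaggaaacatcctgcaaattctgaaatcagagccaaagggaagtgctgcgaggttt
CD36: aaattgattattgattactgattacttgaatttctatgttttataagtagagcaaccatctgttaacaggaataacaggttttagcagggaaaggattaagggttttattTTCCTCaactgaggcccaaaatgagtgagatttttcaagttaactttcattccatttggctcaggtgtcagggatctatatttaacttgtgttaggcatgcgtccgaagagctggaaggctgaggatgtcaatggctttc
STAB1: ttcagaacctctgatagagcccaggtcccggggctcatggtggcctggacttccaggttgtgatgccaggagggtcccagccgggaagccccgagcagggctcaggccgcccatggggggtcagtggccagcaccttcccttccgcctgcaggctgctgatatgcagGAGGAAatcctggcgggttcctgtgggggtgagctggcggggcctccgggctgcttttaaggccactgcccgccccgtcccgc

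The PU.1 core was found in 4 of these 5 stretches, and not in that of MARCO. For CD36 this depends on the start shown, since not all of its 6 starts held the core. It began 182 bases before the start in CD163, 140 in CD36, 83 in STAB1 and 48 in CD68, on the strand opposite to the gene except in STAB1. Across all 35116 RefSeq start regions of the same length, 23.6% held it. The AP-1 letters were found in CD68, starting 100 bases before the start, and in 6.57% of all start regions. A CD36 start that is not shown held them too. Both strands were searched for other motifs too. The C/EBP letters TTGCNNAA were found in CD163 and in CD68, against 9.05% of all start regions. The PPAR/RXR direct repeat and the E-box CACGTG were in none of the 5, and stood in 0.0171% and 6.34% of all start regions. These matches describe letters only. The starts are those of RefSeq, and the gene spans given below come from another annotation. Measured by those spans, the CD36 stretch lies inside its gene, and those of CD68, CD163 and MARCO lie partly inside. Only the STAB1 stretch lies wholly before its gene. The CD68 span starts at 7579467, so the PU.1, AP-1 and C/EBP matches of CD68 lie within it. Base composition of the 5 stretches ran from 33.6% G and C in CD163 to 67.6% in STAB1.

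No scavenger receptor transcript differed detectably between B2 and DMSO. In edgeR's quasi-likelihood test 0 of the 8 tested genes had an adjusted p below 0.05, and 0 had an unadjusted p below 0.05, although 1 had without B2 replicate 3 and 2 without DMSO replicate 3. Of the 8, limma-voom called 0, and DESeq2 called 0 of the 6 for which it gave an adjusted p, with none given for CD163 and CD36. Over all genes edgeR called 0 of 17224, or 0%, with 85 (0.493%) at an unadjusted p below 0.05, while DESeq2 called 1 and limma-voom 0. The fitted log2 fold change was positive for 4 of the 8 and negative for 4, with a median of -0.06, against -0.08 over all tested genes. This fit holds treatment alone, so its SEs (0.29 to 1.96) and the intervals below include the spread between replicate numbers. With replicate number as a block the SEs were 0.24 to 0.73, with 3 differences positive, 5 negative and 0 called. That fit gave -0.36 (SE 0.39) for CD163, -0.18 (SE 0.24) for CD68, -0.45 (SE 0.27) for CD36 and -0.39 (SE 0.29) for MARCO. In none of the 8 did the B2 libraries lie wholly above or below the DMSO libraries, a separation shown by 3.56% of tested genes. For 7 of the 8 it could not occur, because both number 3 libraries, which come from different groups, lay above all others. For those 7 the overlap therefore says nothing about treatment.

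The same libraries differed strongly by replicate number. Haemoglobin receptor CD163, the lysosomal glycoprotein CD68, the fatty acid receptor CD36, the class A receptor MARCO and the endocytic receptor STAB1 were all higher in the libraries numbered 3. These 5 of 8 passed edgeR's test of number, in a fit with treatment and number, at an adjusted p below 0.05, and all 5 were highest in number 3. Over all genes 461 of 17224 passed (2.68%), and 369 (2.14%) passed and were highest in number 3. The median log2 difference of number 3 from the mean of numbers 1 and 2 was 2.42 over the 8 genes and -0.05 over all tested genes. In 7 of the 8, SCARB1 being the exception, both libraries of number 3 lay above the other 4, which was so for 12.3% of tested genes. The test of number was chosen with earlier results of these libraries known.

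**Figure D1:**
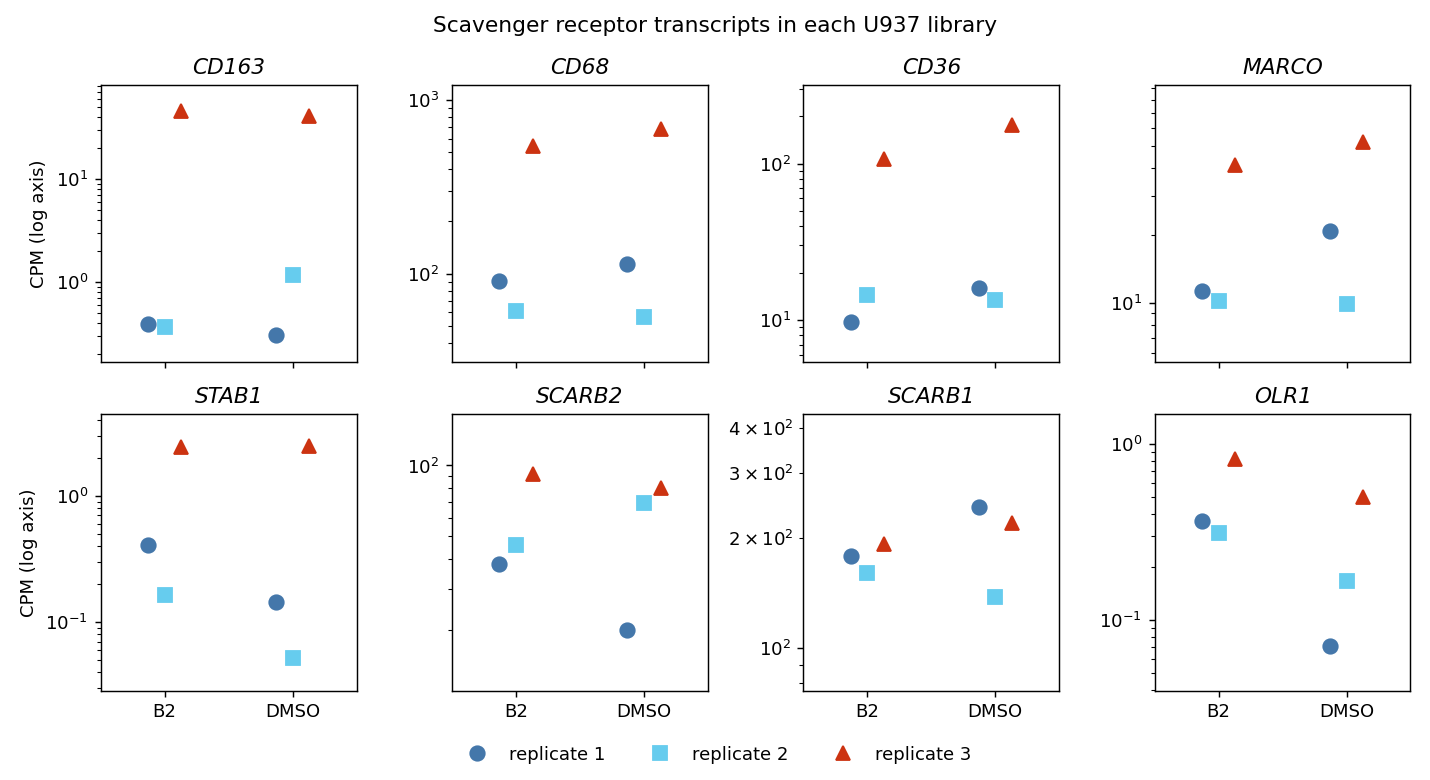
Each panel shows 1 gene with the CPM of every library on a log axis of its own, B2 at the left and DMSO at the right, and colour and shape mark the replicate number. The libraries numbered 3 lie highest in both groups in every panel but that of SCARB1. B2 and DMSO overlap in all 8 panels, which is unavoidable wherever both number 3 libraries lie above all others.

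CD163 encodes the receptor that takes up haemoglobin bound to haptoglobin and is largely restricted to monocytes and macrophages. Its gene (ENSG00000177575) lies on chromosome 12, 7470813 to 7503893, minus strand (GRCh38, GENCODE 29). It read 0.393, 0.369 and 45.6 CPM in the B2 libraries numbered 1, 2 and 3, against 0.304, 1.17 and 40.6 CPM in the DMSO libraries in that order. Both number 3 libraries were thus far above the rest, and the groups overlapped almost completely. Number 3 averaged 43.1 CPM against 0.560 CPM over the other 4 libraries, 77.0 times as much. The log2 difference of number 3 from the mean of the other numbers was 6.41 (SE 0.41, edgeR adjusted p = 1.24e-05), the 16th highest of 17224 genes. B2 over DMSO gave 0.14 (SE 1.96, 95% interval -4.35 to 4.63, edgeR adjusted p = 1.0). Behind the low values stood 17 to 91 counts per library, and DMSO replicate 2 held the 91. A stretch of 38 bases of its exons, 0.65%, also belongs to its neighbour CD163L1 on the same strand.

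CD68 encodes macrosialin, a heavily glycosylated protein of late endosomes and lysosomes that is used as a macrophage stain. It lies on chromosome 17, 7579467 to 7582113, plus strand (ENSG00000129226). It read 90.9, 61.2 and 541 CPM across the B2 libraries, against 114, 56.1 and 679 CPM in the DMSO libraries. Even the lowest of these is far from the limit of detection, so CD68 RNA was present throughout, and number 3 averaged 7.57 times the mean of the other libraries. The log2 difference by number was 2.97 (SE 0.25, edgeR adjusted p = 7.24e-05), and B2 over DMSO gave -0.29 (SE 1.04, 95% interval -2.67 to 2.08, edgeR adjusted p = 1.0). Its values are uncertain, because 81.7% of its exon length is shared with AC016876.2, a transcript on the same strand. That transcript held 1499, 2160 and 1765 counts with B2 and 878, 1747 and 1774 counts with DMSO, against 4355 to 52712 counts for CD68. A further 6.85% lies opposite AC016876.1, an antisense transcript with 206 to 352 counts, and the counting may not have used strand.

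CD36 encodes the class B receptor for long-chain fatty acids, oxidised lipoproteins and thrombospondin. It lies on chromosome 7, 80369575 to 80679277, plus strand (ENSG00000135218). It read 9.79, 14.4 and 107 CPM under B2, against 16.0, 13.4 and 176 CPM under DMSO. The 4 libraries numbered 1 and 2 lay close together, and those numbered 3 stood 10.5 times above their mean. The log2 difference by number was 3.37 (SE 0.28, edgeR adjusted p = 8.1e-05). B2 over DMSO gave -0.65 (SE 1.16, 95% interval -3.31 to 2.01, edgeR adjusted p = 1.0).

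MARCO encodes a collagen-like class A receptor that binds bacteria and inhaled particles. It lies on chromosome 2, 118942166 to 118994660, plus strand (ENSG00000019169). It read 11.3, 10.2 and 40.8 CPM under B2, against 20.8, 9.85 and 51.8 CPM under DMSO. Among the libraries outside number 3, DMSO replicate 1 was the highest. The log2 difference by number was 1.87 (SE 0.29, edgeR adjusted p = 0.0084). B2 over DMSO gave -0.40 (SE 0.71, 95% interval -2.03 to 1.22, edgeR adjusted p = 1.0).

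STAB1 encodes stabilin-1, a large receptor of macrophages and sinusoidal endothelium that clears modified lipoproteins and matrix proteins. It lies on chromosome 3, 52495338 to 52524495, plus strand (ENSG00000010327). It read 0.406, 0.164 and 2.44 CPM under B2, against 0.143, 0.0515 and 2.47 CPM under DMSO. These are low values, from 4 to 192 counts per library, and the number 3 libraries were nearly equal in both groups. The log2 difference by number was 4.02 (SE 0.53, edgeR adjusted p = 0.0028), and B2 over DMSO gave 0.16 (SE 1.37, 95% interval -2.97 to 3.30, edgeR adjusted p = 1.0). Of its exon length 1.05% overlaps NT5DC2 on the opposite strand, and no source used here gives the strand setting of the counting.

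The calls by number held for CD163, CD68 and CD36 with each library left out in turn, at edgeR adjusted p-values up to 0.0069. Leaving out a number 3 library leaves that number with 1 library, which is assumed to vary like the others. The MARCO call was lost without B2 replicate 3 (log2 difference 1.84, adjusted p = 0.161) and without DMSO replicate 3 (1.91, 0.118), against 1.87 with all libraries. The STAB1 call was lost without DMSO replicate 3 (log2 difference 3.23, adjusted p = 0.0739), so 3 of the 8 genes passed there. The count of genes over the whole table was less stable, at 4124 without B2 replicate 1 and 1726 without B2 replicate 2, against 461. Of these, 1118 without B2 replicate 1 and 576 without B2 replicate 2 were highest in number 3, as were 243 without DMSO replicate 3, against 369.

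**Figure D2:**
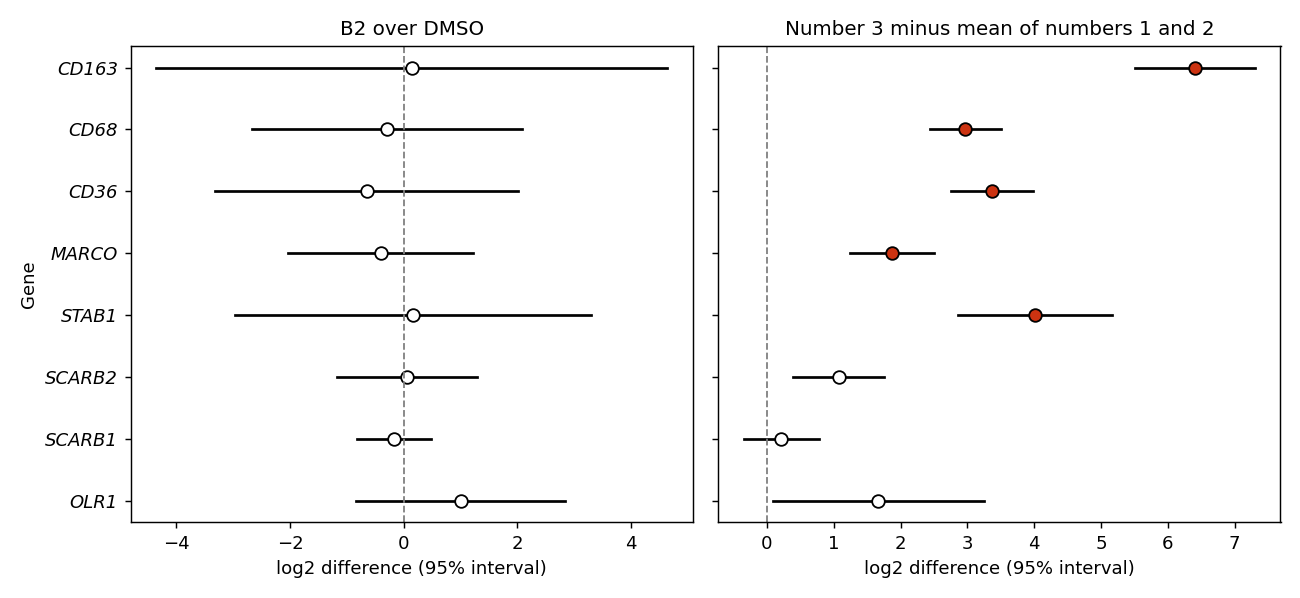
Points are fitted log2 differences and bars their 95% intervals, for B2 over DMSO at the left and for number 3 minus the mean of numbers 1 and 2 at the right; filled points passed the edgeR test of number at an adjusted p below 0.05. All 8 treatment intervals include 0, and they come from the fit of treatment alone, so they hold the spread between numbers. CD163 has the largest difference by number, 6.41. The fill comes from the adjusted p of the test among all numbers, not from the bar. OLR1 and SCARB2 are thus open although their bars at the right lie above 0.

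SCARB2, SCARB1 and OLR1 did not pass the test of number. SCARB2 encodes a lysosomal membrane protein that carries glucocerebrosidase to the lysosome and lies on chromosome 4, 76158733 to 76234536, minus strand (ENSG00000138760). It read 38.1, 45.9 and 91.9 CPM under B2, against 20.0, 69.3 and 80.4 CPM under DMSO. DMSO replicate 1 was the lowest of the 6, and the libraries numbered 3 were the highest. The log2 difference by number was 1.07 (SE 0.31, edgeR adjusted p = 0.0953), and the adjusted p was below 0.05 without B2 replicate 1 (0.0149), B2 replicate 2 (0.0222) or DMSO replicate 2 (0.0293). B2 over DMSO gave 0.05 (SE 0.54, 95% interval -1.18 to 1.28, edgeR adjusted p = 1.0).

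SCARB1 encodes the receptor for high-density lipoprotein, which takes up cholesteryl ester selectively, and lies on chromosome 12, 124776856 to 124882668, minus strand (ENSG00000073060). It read 178, 160 and 192 CPM under B2, against 242, 138 and 219 CPM under DMSO. Its highest library was DMSO replicate 1 and its lowest DMSO replicate 2, a spread of 1.76-fold over all 6, the narrowest of the 8 genes. Its log2 difference by number was 0.22 (SE 0.26, 95% interval -0.34 to 0.78, edgeR adjusted p = 0.470). B2 over DMSO gave -0.18 (SE 0.29, 95% interval -0.83 to 0.48, edgeR adjusted p = 1.0).

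OLR1 encodes the lectin-like receptor for oxidised low-density lipoprotein and lies on chromosome 12, 10158301 to 10172138, minus strand (ENSG00000173391). It read 0.366, 0.315 and 0.825 CPM under B2, against 0.0716, 0.167 and 0.502 CPM under DMSO, from 4 to 50 counts per library. B2 over DMSO gave 1.00 (SE 0.80, 95% interval -0.84 to 2.84, edgeR adjusted p = 1.0), with 0.44 when B2 replicate 3 was left out and 2.03 when DMSO replicate 3 was. The groups overlapped, since DMSO replicate 3 was above B2 replicates 1 and 2. Its log2 difference by number was 1.67 (SE 0.72, edgeR adjusted p = 0.326).

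MRC1 and MSR1 were at or near the limit of detection. MRC1, the macrophage mannose receptor (chromosome 10, 17809344 to 17911170, ENSG00000260314), had 0 counts in all 6 libraries, which allows up to 0.0537 CPM in the shallowest after scaling. MSR1, the class A receptor for acetylated lipoproteins (chromosome 8, 16107878 to 16567490, ENSG00000038945), had 4 counts (0.0542 CPM) in B2 replicate 1 and 0 in the other 5 libraries. The libraries numbered 3, in which CD163 and MARCO were higher, thus held no count of either gene.

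Within each replicate number the B2 and DMSO libraries could be set side by side, on the scale of log2(CPM + 0.5). OLR1 was the only one of the 8 whose differences had the same sign in all 3 numbers, at 0.60, 0.29 and 0.40, where 15.8% of tested genes had 1 direction throughout. CD36 gave -0.69 in number 1 and -0.72 in number 3, but 0.10 in number 2. MARCO showed the same order of signs, with -0.85, 0.05 and -0.34. CD68 gave -0.32, 0.12 and -0.33 in numbers 1, 2 and 3, and SCARB1 gave -0.44, 0.22 and -0.19. SCARB2 ran the other way, at 0.91, -0.59 and 0.19. CD163 gave 0.15, -0.94 and 0.17, and STAB1 0.49, 0.27 and -0.01. Each of these values rests on 1 library per group, and so has no replicate check of its own. The added 0.5 exceeds the CPM of OLR1, STAB1 and CD163 in most libraries numbered 1 and 2, which shrinks their differences there. Plain ratios of B2 to DMSO CPM in numbers 1, 2 and 3 were 5.10, 1.88 and 1.64 for OLR1. Those of STAB1 were 2.84, 3.19 and 0.988, and those of CD163 were 1.29, 0.315 and 1.12.

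**Figure D3:**
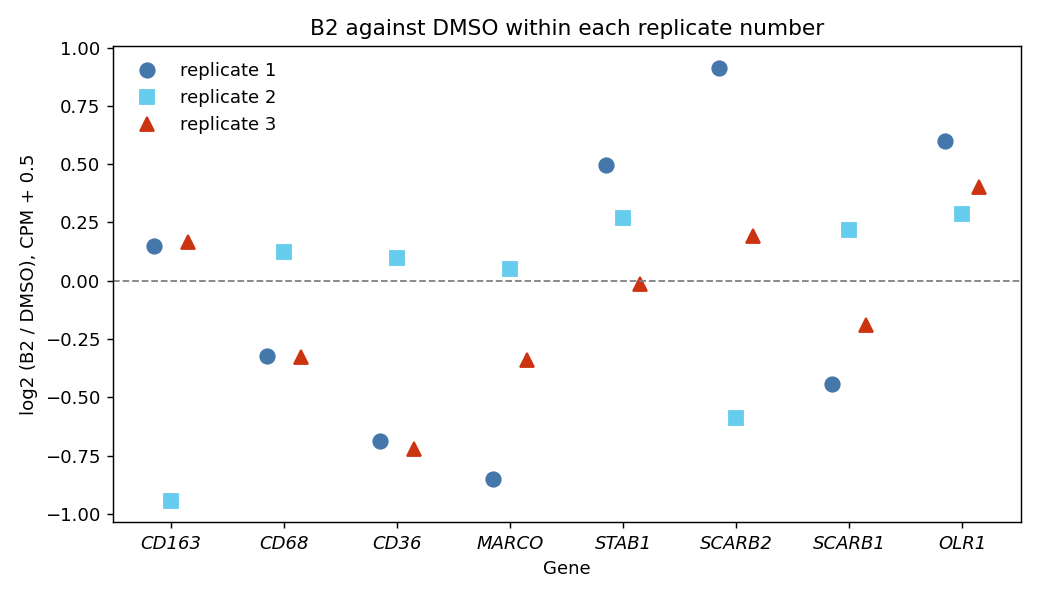
Points are the log2 difference of B2 from DMSO within each replicate number, on CPM + 0.5, for the 8 tested genes. Number 2 lies on the other side of 0 from numbers 1 and 3 for CD163, CD68, CD36, MARCO, SCARB2 and SCARB1.

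Levels were compared between genes only per length, as CPM per kilobase of the longest protein-coding transcript. In the 4 libraries numbered 1 and 2 SCARB1 led with a mean of 53.9, followed by CD68 with 42.9, and SCARB1 was above CD68 in 4 of 4 libraries although their ranges overlapped. SCARB2 (9.04), MARCO (7.10) and CD36 (5.68) followed, with overlapping ranges between neighbours among these 3. CD163 (0.131), OLR1 (0.0934) and STAB1 (0.0241) were far lower, with overlapping ranges between neighbours. In the 2 libraries of number 3 the order was led by CD68 at 325, with SCARB1 at 61.8 and CD36 at 59.8 behind it, the last pair not distinguishable by their ranges. MARCO stood at 25.2, SCARB2 at 18.0 and CD163 at 10.1, without overlap. STAB1 (0.310) and OLR1 (0.270) overlapped. With the union of all exons as length, CD68 stood above SCARB1 in numbers 1 and 2 as well (36.8 against 23.2), MARCO above SCARB2 there, and in number 3 MARCO stood above CD36 and CD163 above SCARB2.

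**Figure D4:**
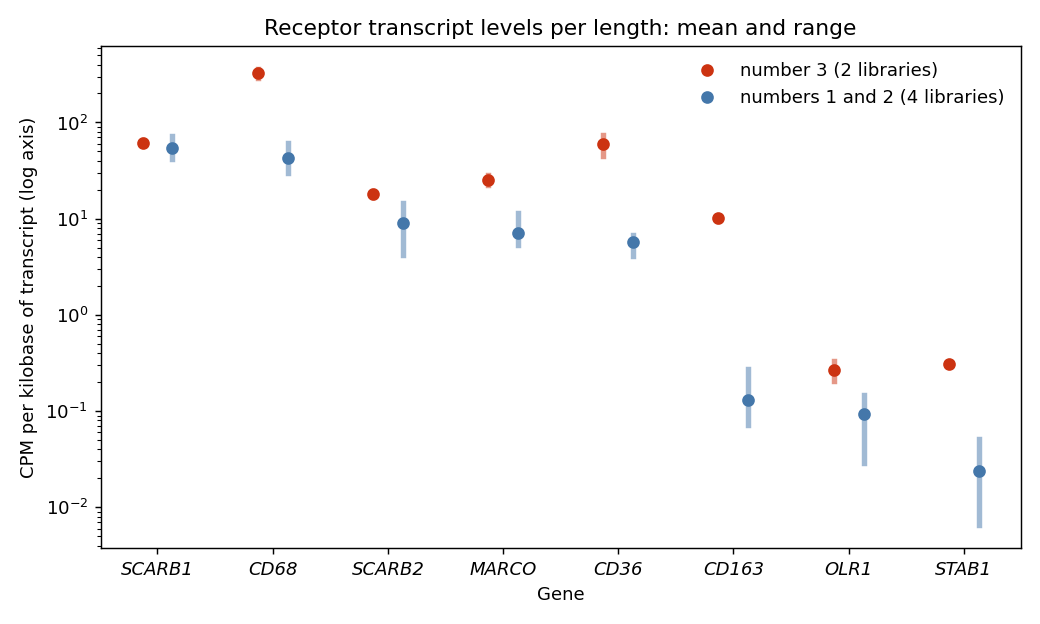
Points are mean CPM per kilobase of the longest protein-coding transcript on a log axis and bars the range, for the 2 libraries of number 3 and the 4 libraries of numbers 1 and 2. CD68 and CD36 lie well above their level in the other libraries, at 325 and 59.8, while SCARB1 lies at 61.8 against 53.9.

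The make-up of the family by RNA differed accordingly. The summed CPM of the 10 genes was 329, 292 and 1021 with B2 and 413, 288 and 1250 with DMSO. SCARB1 supplied 54.0%, 54.7% and 18.8% of that sum under B2 (numbers 1, 2 and 3), against 58.6%, 47.8% and 17.5% under DMSO. CD68 supplied 27.6%, 20.9% and 52.9% with B2 and 27.5%, 19.5% and 54.3% with DMSO, so that it and SCARB1 changed places as the largest contributor in number 3. These shares are of CPM without regard to length.

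Some of the cell identity markers moved with number. Of 18 tested monocyte and macrophage markers 0 were called for treatment, with 5 positive and 13 negative, where 37.9% of all tested genes were positive. By number 6 of the 18 were called, all highest in number 3 (ITGB2, CSF1R, CD14, FCGR1A, SIGLEC1 and VSIG4). The difference of number 3 from the other numbers was positive for 14 of the 18, with a median of 1.05. CD14, the lipopolysaccharide co-receptor, read 121 and 110 CPM in number 3 of B2 and DMSO and at most 1.29 CPM elsewhere. The summed level of the list was 10723 to 11465 CPM in number 3 against 4936 to 7459 CPM in numbers 1 and 2. PTPRC, the pan-leukocyte CD45 gene, was detected in all 6 libraries (53.2 to 154 CPM), as was CD33 (85.9 to 115 CPM). The granule gene ELANE was at 624 to 1307 CPM, but MPO was at only 0.281 to 1.67 CPM. FCGR3A was at 0 to 0.0821 CPM in numbers 1 and 2 and at 13.5 and 10.8 CPM in number 3 of B2 and DMSO. The list thus did not move as 1 block, and the myeloid label was not tested. In bulk RNA, fewer cells of a type and less RNA per cell cannot be told apart.

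Among markers of other cell types that can express these receptors, the endothelial genes TEK, EMCN and LYVE1 and the platelet genes PF4, GP9 and GP1BB were at 0 in all 6 libraries. The endothelial list summed to 227 to 286 CPM in number 3 and 39.8 to 174 CPM in numbers 1 and 2, nearly all of it PECAM1, which myeloid cells express too, and 0 of its 4 tested genes were called. The platelet list summed to 15.6 to 19.0 CPM in number 3 and 2.88 to 4.09 CPM in numbers 1 and 2, with PPBP the 1 of 4 called. T cell genes CD3D, CD3E, CD3G and CD28 were at 0, and that list summed to 3.61 to 4.92 CPM in number 3 and 0.312 to 0.985 CPM elsewhere, with CD2 the 1 of 2 called. B cell (19.6 to 23.3 against 19.6 to 26.4 CPM) and fibroblast and adipocyte markers (3.99 to 4.62 against 1.85 to 3.74 CPM) had 0 genes called by number, with MS4A1, CR2, BLK and ADIPOQ at 0. The 9 epithelial markers summed to 30.4 to 37.0 CPM with B2 and 3.22 to 26.9 CPM with DMSO, all 9 with a positive treatment difference and 0 called. By number they summed to 26.9 to 37.0 CPM in number 3 and 3.22 to 30.8 CPM in numbers 1 and 2, again with all 9 differences positive (median 1.10) and 0 called. The part of any of these in the receptor values was not tested.

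Other scavenger and lectin receptors gave a mixed picture. Of 16 tested, 0 were called for treatment (8 positive, 8 negative) and 3 by number, all highest in number 3. The lectin CD209, which binds mannose-rich glycans, read 3.55, 2.44 and 103 CPM under B2, against 6.64, 2.18 and 125 CPM under DMSO (log2 difference by number 5.06, SE 0.31, edgeR adjusted p = 8.4e-06). The beta-glucan receptor CLEC7A averaged 12.3 CPM in number 3 against 0.197 to 0.623 CPM elsewhere (4.70, adjusted p = 5.7e-05), and the large lipoprotein receptor LRP1 13.1 against 1.60 to 2.17 CPM (2.77, adjusted p = 5.6e-04). The genes with the smallest treatment p were LY75 and SCARA3, at log2 fold changes of -0.75 (SE 0.50) and 1.51 (SE 1.02), neither of which passed. TIMD4, MEGF10 and CD5L were at 0 throughout.

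Genes that act after uptake were also examined. In the list of haemoglobin and haem handling, 0 of 9 tested genes were called for treatment (3 positive, 6 negative) and 3 by number. These were the ferritin chains FTH1 (3592 CPM in number 3 against 275 to 583 CPM, adjusted p = 5.1e-05) and FTL (22264 against 6237 to 13676 CPM, adjusted p = 0.0204) with LRP1, the haemopexin receptor already named. In lipid handling 0 of 12 were called for treatment (9 positive, 3 negative) and 1 by number. This was the fatty acid carrier FABP4 (2.36 against 0.412 to 0.853 CPM, adjusted p = 0.0396). Those with the smallest treatment p, APOE at 0.55 (SE 0.60) and the droplet coat gene PLIN2 at 0.14 (SE 0.29), did not pass.

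Among 11 tested lysosomal genes 0 were called for treatment (1 positive, 10 negative) and 3 by number. For the direction counts of all these lists, above and below, 37.9% of all tested genes had a positive treatment difference. Saposin precursor PSAP averaged 3629 CPM in number 3 against 723 to 1419 CPM, cathepsin CTSB 2829 against 671 to 1260 CPM and cathepsin CTSD 14841 against 3221 to 7835 CPM, with adjusted p-values of 0.0027, 0.0054 and 0.0072. LAMP2, a lysosomal membrane gene, read 125, 170 and 241 CPM under B2, against 72.8, 346 and 223 CPM under DMSO, lowest in DMSO replicate 1 as SCARB2 was. Of 17 transcription factors known to act on such receptors 0 were called for treatment (3 positive, 14 negative). The monocytic factor CEBPB, at 262 against 99.9 to 160 CPM, did not pass the test of number (adjusted p = 0.0669). Of 9 adaptors and signalling partners 0 were called in either test, with 8 treatment differences positive and 1 negative. The negative one was TLR4, the lipopolysaccharide receptor that forms a complex with CD36 and TLR6, at -0.37 (SE 0.39). Among the positive ones the kinase gene LYN was at 0.26 (SE 0.35).

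Genes whose pattern over the 6 libraries was closest to a receptor were sought among 12874 other tested genes with a mean of at least 1 CPM. Closeness was the root mean square difference of log2(CPM + 0.5) after centring each gene. CD163 was closest to IFI27, at 0.16, and ADAMDEC1, at 0.34. CD36 was closest to IRF9 (0.14) and OLFML2B (0.23), CD68 to HELZ2 (0.14) and CHI3L1 (0.14), and MARCO to SERPINA1 (0.13) and CTSH (0.13). SCARB1 was closest to NPLOC4, at 0.02, and ARF1, at 0.03, and SCARB2 to SLC4A8 and TLR2, at 0.13 and 0.15. Among the receptors themselves CD36 and CD68 were nearest to each other, at 0.45. Of all compared genes, CD68 was the 47th closest to CD36, and CD36 the 75th closest to CD68. The nearest receptor to SCARB1 was MARCO at 0.78 (rank 10736), and the nearest to SCARB2 was SCARB1 at 0.88 (rank 8479), so most compared genes were closer to each. The nearest to CD163 was CD36, at 1.10 (rank 53).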

How the data were processed

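The authors deposited 1 table of whole-number counts per Ensembl gene, not normalized, made after alignment that, per the submitters' processing notes, used HISAT2 2.0.4. No source used here names the counter, build, annotation or strand setting. No source says that they are estimates, but 4 occurred 6465 times against 3144 for 3 and 2022 for 5, so the values the authors deposited were handled as estimated counts, with small ones taken as inexact. Symbols came from a gene name table (60401 identifiers) and GENCODE 29 (187 more), lengths and positions from GENCODE 29.

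Genes were filtered with filterByExpr (minimum count 10, minimum total 15), scaled with TMM (factors 0.86 to 1.07) and tested with edgeR 4.0.16 (R 4.3.3, glmQLFTest, Benjamini-Hochberg over 17224 genes, threshold 0.05): treatment alone, and number beside treatment. Every single-gene adjusted p is from edgeR unless another tool is named. For number it belongs to the test of any difference among the numbers, not to the printed log2 difference. Alternatives were DESeq2 1.42.0, limma-voom 3.58.1, other scalings and filters, counts divided by 4, a replicate block and each library left out.

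Same-numbered libraries deviated together from their group means (Pearson r across genes 0.37, 0.62 and 0.70). Deviations within a group sum to 0, so number 3 standing apart can by itself raise r for numbers 1 and 2. For 6 of 6 libraries r was highest with the same-numbered library of the other group. Numbers were therefore taken to pair the libraries in the comparison within numbers and in the replicate block. The main treatment test did not use this pairing, which comes from the data, not the labels. Members, lists and tests were chosen with earlier results of these data known; the motifs and the per-length scale were chosen after the values were seen. Named genes outside the 10 were the 2 with the smallest treatment p and the 3 with the smallest number p of each list, of which part are printed and some results are not reported here, the 2 closest in pattern to each gene of at least 1 mean CPM, and markers.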

Additional observations from a re-analysis of the deposited data

How the results depend on the processing

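The count of receptors called for treatment was 0 under all 16 alternatives run, the replicate block among them. Only 6 of the 8 were tested by DESeq2 (not CD163 and CD36). With at least 1 CPM in 3 libraries and with counts divided by 4, 6 were tested (not STAB1 and OLR1). Over all genes the count called for treatment was 1 with DESeq2, 48 (31 higher) without both libraries of number 3 and with the replicate block, 0 to 1 (0 to 1 higher) with 1 library left out, and 0 elsewhere; the block with all libraries gave 0 and changed no call. The fit without number 3 and with the block was chosen after the data were seen. No fold change of the 8 receptors was called, and signs turned under some settings. CD163 went to -0.36 with the replicate block, -0.56 with limma-voom, -0.96 without number 3 and -0.68 without number 3 and with the block. SCARB2 was -0.0858 without number 3. With 1 library left out the ranges were -5.20 to 4.37 for CD163, -2.51 to 1.57 for CD36, -1.90 to 1.44 for CD68, -1.36 to 0.44 for MARCO, -0.43 to 0.39 for SCARB2, -1.64 to 3.37 for STAB1 and 0.44 to 2.03 for OLR1, the lowest without B2 replicate 3 and the highest without DMSO replicate 3 in each. SCARB1 ran from -0.41 without DMSO replicate 2 to -0.01 without DMSO replicate 1.

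By number, 461 genes (369 highest in number 3) became 956 with RLE factors, 266 with library totals, 1346 with at least 1 CPM in 3 libraries, 2379 (863) with counts divided by 4, and 1278 (622) with limma-voom. With 1 library left out the counts ran from 388 to 4124, those highest in number 3 from 243 to 1118, and the receptors called from 3 to 6. Otherwise 5 or 6 receptors were called. SCARB2 joined the 5 with RLE factors and limma-voom. With at least 1 CPM in 3 libraries and with division by 4, STAB1 and OLR1 are not tested, and 5 of the 6 tested were called, SCARB2 among them. For all other shifts the cause was not tested. At 4 to 50 counts per library, counting error adds to the spread of OLR1, and 4 counts in a library of STAB1 are subject to the same limit.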
